A study of Ovis aries with 8 samples.

Results

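DLK1, MEG3 and 7 genes of the Notch pathway (NOTCH1, NOTCH2, NOTCH3, JAG1, HES1, HEY1 and RBPJ) were looked up by their symbols in the array's platform annotation. The set was chosen with earlier results of these data known. Of these 9 genes, 5 had a named probe set: DLK1, MEG3, JAG1, HEY1 and RBPJ. They were read by 12 of 24016 bovine probe sets, and they are 5 of the 9155 genes that the annotation names with a single symbol. NOTCH1, NOTCH2, NOTCH3 and HES1 had no probe set that the annotation names, and they were not analysed here. The brightest probe set by its mean over all arrays stood for a gene, and every other probe set of the 5 genes is given as well.

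DLK1 (delta like non-canonical Notch ligand 1) encodes a transmembrane protein with EGF-like repeats that resembles the Notch ligands but lacks their DSL domain. In fat it is known as preadipocyte factor 1, a marker of preadipocytes that is lost as they become fat cells. MEG3 is a long non-coding RNA made from the maternal chromosome, whereas DLK1 is made from the paternal one. In canonical Notch signalling a ligand such as JAG1 on one cell engages a Notch receptor on the next, the receptor is cut by ADAM proteases and gamma-secretase, and its freed intracellular domain joins RBPJ on DNA to switch on HES and HEY genes, which encode transcriptional repressors. On sheep assembly ARS-UI_Ramb_v3.0 the neighbours of DLK1 in the gene order were BEGAIN on one side and GTL2, the older name of MEG3, on the other.

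Perirenal fat, labelled kidney fat, came from 8 male lambs of 12 weeks from a Dorset/Suffolk/Rambouillet cross-bred flock. The 4 NmatCpat lambs carried the Callipyge allele, inherited from the sire, with a wild type allele from the dam, and the 4 NmatNpat lambs were wild type on both chromosomes. The Callipyge mutation is a point mutation between DLK1 and MEG3 that enlarges certain muscles only in lambs with the allele from the sire and a wild type allele from the dam. The lambs shared 1 flock and diet and had not been weaned, none was treated, and their RNA was hybridised to bovine arrays, 1 per lamb. The comparison asks whether the allele alters transcripts in a tissue other than muscle, and here whether its flanking genes and the Notch genes differ or vary together from lamb to lamb.

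Of the 14 measured fat cell markers, 1 was below the median level on every array. FABP4, the fatty acid binding protein of fat cells, read 13.63 to 13.74 and ADIPOQ (adiponectin) 12.81 to 13.29 on the log2 scale. The median signal per array was 65.3 to 72.6. The array of NmatNpat animal 1 stood apart. It held 184 probe sets more than 3 log2 units above the mean of the others, against 20 to 54 elsewhere, and its 12 measured markers of neurons and adrenal medulla lay a mean of 4.67 log2 units above their means over all 8 arrays, against -1.01 to 0.37 elsewhere. On the array of NmatCpat animal 4 the 11 measured skeletal muscle markers lay a mean of 1.34 log2 units above theirs, against -0.76 to 0.21 elsewhere. They were not all raised. MYL2, which varied most, read 7.03 there against 0.96 to 3.63 elsewhere, and ACTA1 was highest there at 9.92, whereas CKM was lowest there at 9.22. That array held 23 probe sets more than 3 log2 units above the mean of the others, and in this it did not stand apart. All levels below are log2 intensities after quantile normalization over the 8 arrays, differences are NmatCpat minus NmatNpat, and levels of different probe sets are not comparable with each other.

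DLK1 was clearly measured in perirenal fat and varied more between lambs of the same genotype than between genotypes. Its brighter probe set read 9.52, 8.80, 9.54 and 9.02 in NmatCpat animals 1 to 4 and 9.35, 8.88, 9.27 and 7.92 in NmatNpat animals 1 to 4. The genotypes overlapped, with all but NmatNpat animal 4 of the NmatNpat lambs inside the NmatCpat range, and that lamb was lowest by a wide margin. The means were 9.22 ± 0.37 and 8.85 ± 0.65 (SD, n = 4 each), a difference of 0.36 with a 95% interval of -0.45 to 1.18 (two-sided exact permutation test, p = 0.429; limma's adjusted p = 0.983). On the linear scale the interval runs from 0.730-fold to 2.27-fold, so a true change anywhere within those bounds is compatible with the 8 arrays. In bulk tissue, fewer cells of a type and less RNA per cell cannot be told apart.

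Much of the DLK1 difference rested on NmatNpat animal 4, without which it was 0.06. With NmatNpat animal 1 and NmatCpat animal 4, whose neuron or muscle markers were high on average, both left out it was 0.60. The dimmer probe set of DLK1 read 6.60, 5.22, 6.97 and 6.10 in the NmatCpat and 6.34, 6.29, 7.04 and 5.33 in the NmatNpat lambs. Here NmatCpat animal 2 was lowest and NmatNpat animal 4 next to lowest, and the difference was -0.03 (95% interval -1.12 to 1.06; exact permutation p = 0.943). The sign of the DLK1 difference therefore depended on the probe set. The lambs themselves were ordered alike by both, with r = 0.80 over 8 lambs (two-sided exact permutation test over all pairings, p = 0.00942) and rho = 0.81 (exact p = 0.0218). Without NmatCpat animal 3 and NmatNpat animal 4, the lambs farthest from the median of the brighter probe set, r was 0.71.

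The spread of DLK1 among lambs of one genotype was wide for its brightness. Its pooled within-genotype SD was 0.53, whereas the 1001 probe sets nearest to it in mean level had a median of 0.23, and 94.2% of them varied less. This is a description of these arrays with no test. Of the other members, the fourth brightest probe set of MEG3 had the widest spread, at 1.04 against 0.29 for its neighbours in level. The brightest JAG1 and RBPJ probe sets, at 0.16 and 0.19, varied slightly less than the median of theirs, which was 0.21 and 0.20.

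MEG3 was read by 5 probe sets. The brightest read 9.95, 10.08, 10.49 and 10.26 in NmatCpat animals 1 to 4 and 10.25, 10.37, 10.52 and 9.69 in NmatNpat animals 1 to 4. The highest and the lowest lamb were both NmatNpat, so the genotypes overlapped entirely. The difference was -0.01 (95% interval -0.55 to 0.52; exact permutation p = 0.943; limma's adjusted p = 0.998), and its sign changed when single lambs were left out.

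The other MEG3 probe sets divided in how they ran over the lambs. The second in brightness read 8.29, 8.29, 8.995 and 8.35 in the NmatCpat and 8.54, 8.50, 9.01 and 8.27 in the NmatNpat lambs, with animal 3 highest in both genotypes. The third ran with it at r = 0.91 over lambs, and their differences were -0.10 and -0.11. The fourth, with the widest spread, read 7.76, 7.73, 8.53 and 6.98 in the NmatCpat and 8.19, 6.10, 8.49 and 6.02 in the NmatNpat lambs. Its NmatNpat lambs fell into a high and a low pair, and its difference of 0.55 had a 95% interval of -0.96 to 2.07. That difference rested on single lambs: it was 0.16 without NmatNpat animal 4, 0.18 without NmatNpat animal 2, 0.29 without NmatCpat animal 3, 0.88 without NmatNpat animal 1, 0.98 without NmatNpat animal 3 and 1.14 with NmatNpat animal 1 and NmatCpat animal 4 both left out. The dimmest read 6.48, 6.48, 7.02 and 6.22 in the NmatCpat and 6.58, 6.24, 6.65 and 7.07 in the NmatNpat lambs. It put NmatNpat animal 4 highest, where the other 4 put that lamb lowest, and its r with the other MEG3 probe sets was -0.23 to 0.35. Which transcripts of MEG3 each probe set reads was not tested. Of the other genes of the imprinted region, MEG8 had a mean level of 0.51, near the bottom of the scale, and a difference of -0.04.

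**Figure D1:**
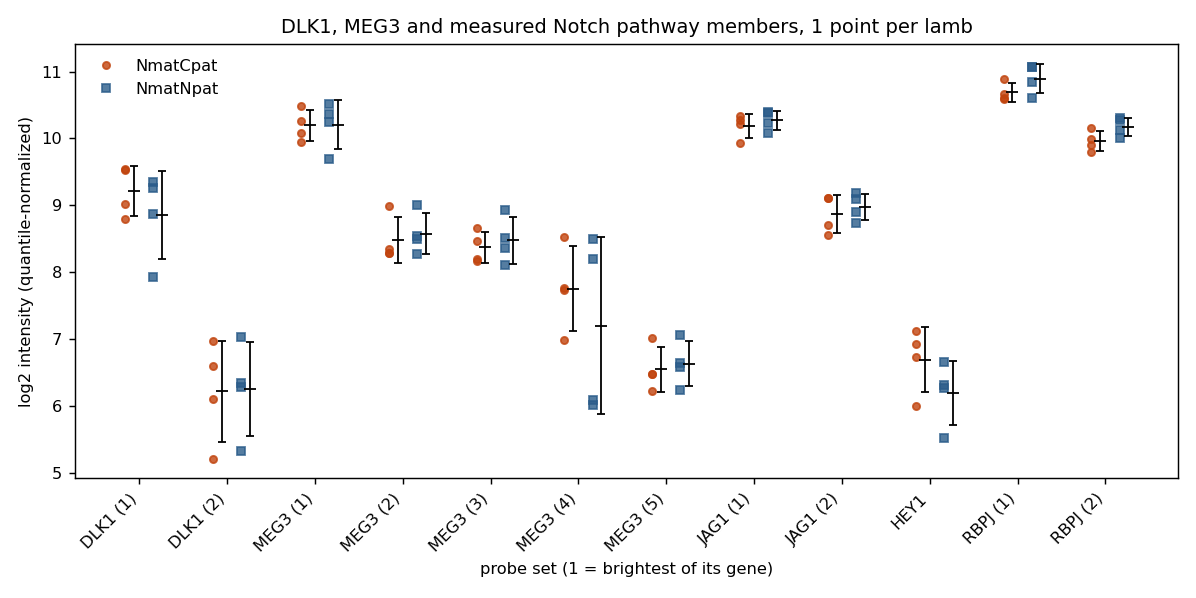
Quantile-normalized log2 intensity (y axis) of 12 probe sets, which read DLK1, MEG3, JAG1, HEY1 and RBPJ, with 1 point per lamb, circles for NmatCpat and squares for NmatNpat; black bars are the mean ± SD of 4 lambs. The genotypes overlap for every probe set, and the widest spreads are those of DLK1 and of the fourth MEG3 probe set.

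JAG1, the Notch ligand among the members, was bright and even across the lambs. It read 10.27, 9.93, 10.22 and 10.34 in the NmatCpat and 10.38, 10.08, 10.23 and 10.39 in NmatNpat animals 1 to 4. Animal 2 was lowest in each genotype and the groups overlapped. The difference was -0.08 (95% interval -0.47 to 0.30, that is 0.722-fold to 1.24-fold; exact permutation p = 0.514). The second JAG1 probe set gave -0.11 and ordered the lambs alike, with r = 0.82 over 8 lambs (exact permutation p = 0.00863) and rho = 0.86 (exact p = 0.0107), and r = 0.87 without animal 2 of either genotype.

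RBPJ, the DNA-binding partner of the Notch intracellular domain, read 10.60, 10.59, 10.89 and 10.67 in the NmatCpat and 10.60, 11.06, 11.07 and 10.85 in NmatNpat animals 1 to 4. The highest lambs were NmatNpat, and the overlap came from NmatNpat animal 1, which was as low as the lowest NmatCpat lambs, and from NmatCpat animal 3. The difference was -0.21 (95% interval -0.62 to 0.20; exact permutation p = 0.229). On the second RBPJ probe set it was -0.22 (exact permutation p = 0.114), and -0.34 with NmatNpat animal 1 and NmatCpat animal 4 both left out.

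HEY1, a transcriptional repressor and direct target of Notch signalling, showed the largest difference among the brightest probe sets of the 5 genes. It read 7.12, 6.93, 6.73 and 6.01 in the NmatCpat and 5.53, 6.27, 6.32 and 6.66 in NmatNpat animals 1 to 4. All but 1 NmatCpat lamb lay above all NmatNpat lambs, NmatCpat animal 4 being the exception. The means were 6.70 ± 0.49 and 6.195 ± 0.48 (SD, n = 4 each), and the difference of 0.50 had a 95% interval of -0.25 to 1.26 (exact permutation p = 0.20; limma's adjusted p = 0.983). Without NmatCpat animal 4 the difference was 0.73, with an unadjusted P of 0.0441 and an adjusted p of 0.996 by limma, which is past the study's thresholds. HEY1 was thus the member whose call depended on 1 lamb. Without both NmatCpat animal 4 and NmatNpat animal 1, the lowest lamb of each genotype, the difference was 0.51.

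None of the 12 probe sets passed the study's thresholds of P at most 0.05 and a fold change over 1.5, which 3.93% of all 24016 probe sets did. None had an adjusted p under 0.05, as for all 24016 probe sets (0.0%), of which 1118 (4.66%) had an unadjusted P of at most 0.05. None had genotypes that did not overlap, against 2.74% of all probe sets. With 4 lambs against 4 the smallest two-sided exact permutation p is 0.0286.

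The next question was whether DLK1 varied over the lambs together with MEG3, its imprinted neighbour. For the brightest probe sets Pearson's r was 0.65 over 8 lambs (two-sided exact permutation over all pairings, p = 0.0809; adjusted p = 0.324 over the 4 relations of DLK1 with measured members) and Spearman's rho was 0.40 (exact p = 0.327). With both genes centred within genotype r was 0.70 (exact p = 0.118, pairings permuted within genotype). Of all other probe sets, 7.47% had an r with DLK1 at least as large in size. The relation rested on few lambs. Without NmatCpat animal 3 and NmatNpat animal 4, the lambs farthest from the median of DLK1, r was -0.20. Without NmatNpat animal 4, which was lowest in both genes, r was 0.08. Without NmatCpat animal 1, in which DLK1 was high and MEG3 low, r was 0.90 (exact p = 0.0123; adjusted p = 0.0492 over the 4 relations).

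All 10 pairs of a DLK1 and a MEG3 probe set were then compared. With the brighter DLK1 probe set, r was 0.65, 0.52, 0.55 and 0.78 for the 4 brighter MEG3 probe sets in order of brightness, and with the dimmer it was 0.72, 0.79, 0.79 and 0.59. With the dimmest MEG3 probe set it was -0.23 and 0.02. The closest relation of the brighter DLK1 probe set was with the fourth MEG3 probe set, at r = 0.78 (exact permutation p = 0.0132; adjusted p = 0.101 over the 10 pairs) and rho = 0.83 (exact p = 0.0154; adjusted p = 0.0698), and it was 0.58 without the 2 lambs farthest from the DLK1 median. For the dimmer DLK1 probe set r was highest with the third MEG3 probe set, at 0.788 (exact p = 0.0201; adjusted p = 0.101). It was 0.64 without NmatCpat animal 2 and NmatNpat animal 4. With the second MEG3 probe set r was 0.787 (exact p = 0.0314; adjusted p = 0.105), and 0.84 without those lambs. No pair had an adjusted p under 0.05. The pairs share lambs and genes, so they are not 10 independent observations.

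**Figure D2:**
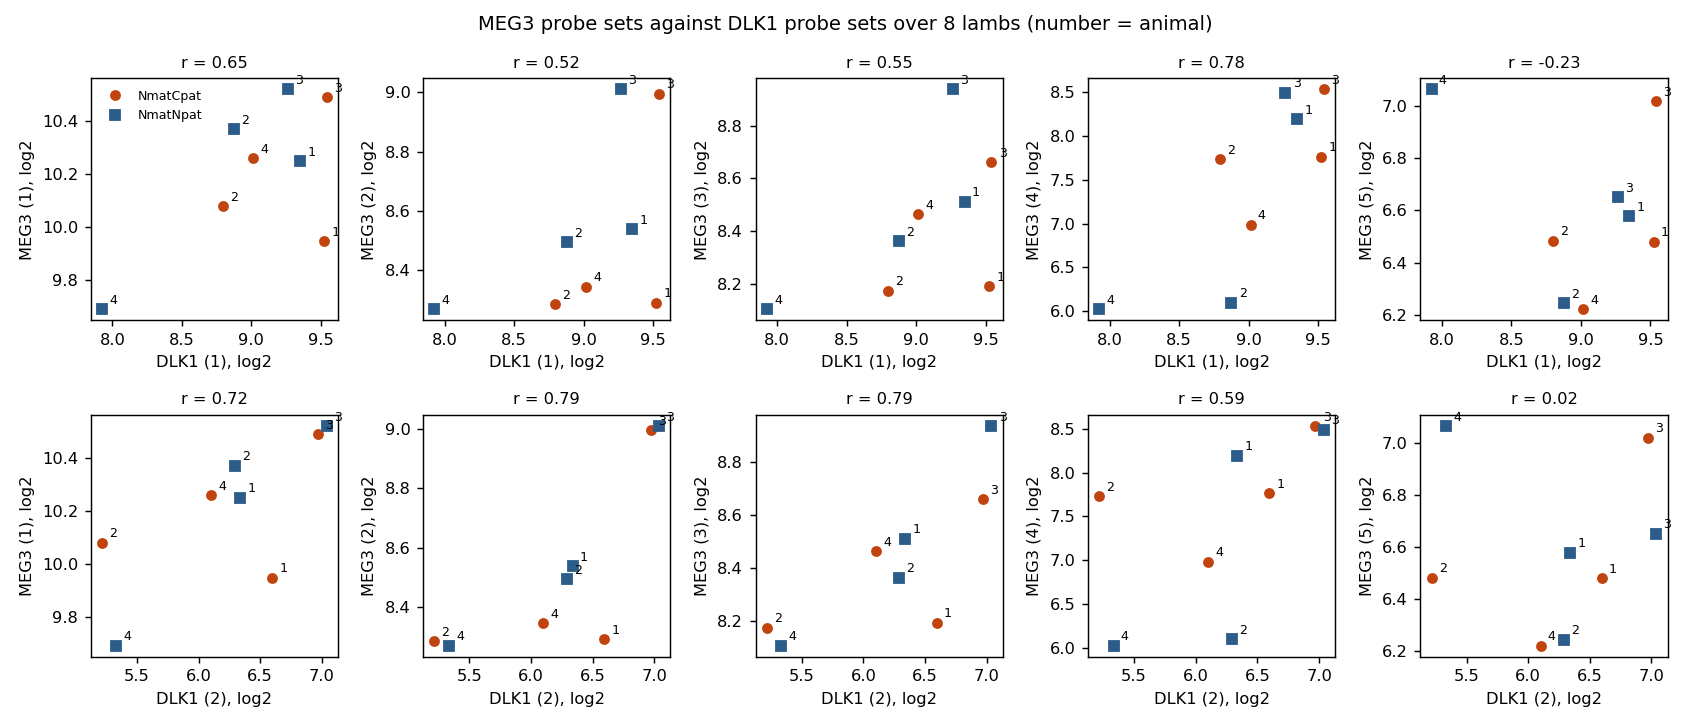
Log2 intensity of the 5 MEG3 probe sets (y axes, in order of brightness) against the brighter (top row) and the dimmer (bottom row) DLK1 probe set, with 1 point per lamb labelled by animal number, circles for NmatCpat and squares for NmatNpat. NmatNpat animal 4 lies at the lower left in the first 4 panels of the top row and at the upper left in the last, where r is -0.23.

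With the Notch genes DLK1 showed no relation that passed a test. For JAG1 r was -0.04 (exact permutation p = 0.916) and rho -0.02 (exact p = 0.977). For HEY1 r was -0.08 (exact p = 0.839) and rho 0.10 (exact p = 0.840). For RBPJ r was -0.13 (exact p = 0.800) and rho 0.06 (exact p = 0.899). The adjusted p of r was 0.916 for each. Centred within genotype they were 0.07, -0.34 and 0.09. Without the 2 lambs farthest from the DLK1 median they were 0.73, -0.01 and -0.20. The 0.73 of JAG1 came from the other 6 lambs and did not pass a test (exact permutation p = 0.103). Over 8 lambs the second probe sets of JAG1 and RBPJ had an r of -0.25 and -0.55 with the brighter DLK1 probe set. With 8 lambs, weak or moderate relations were not detectable.

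**Figure D3:**
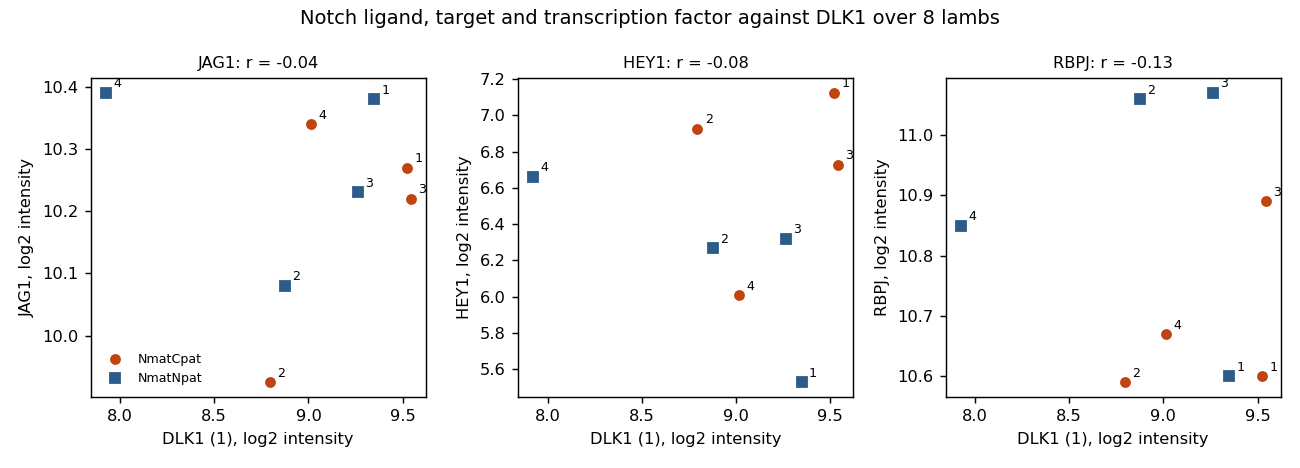
Log2 intensity of JAG1, HEY1 and RBPJ (brightest probe sets, y axes) against that of the brighter DLK1 probe set (x axes), with 1 point per lamb labelled by animal number, circles for NmatCpat and squares for NmatNpat. No panel shows a trend, with r of -0.04, -0.08 and -0.13.

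Over all 24015 other probe sets, 1051 (4.38%) had an exact p of at most 0.05 for their correlation with DLK1, and none had an adjusted p under 0.05 (0.0%). The lowest adjusted p was 0.596. By their brightest probe sets none of the 4 other members was among the 1051, whereas the fourth MEG3 probe set, described above, was. Of the other 6 pairs among the 5 measured genes, the closest was MEG3 with RBPJ, at r = 0.47 (exact permutation p = 0.237; adjusted p = 0.849 over all 10 pairs of members) and rho = 0.69 (exact p = 0.0636). It was 0.83 without NmatCpat animal 1 and NmatNpat animal 4. The second RBPJ probe set had an r of -0.17 with the same MEG3 probe set, the opposite sign. Both RBPJ probe sets ran together only loosely, at r = 0.55 over 8 lambs (exact permutation p = 0.159). HEY1 had a negative r with each of the other 4 genes, from -0.42 with JAG1 to -0.06 with RBPJ, and no pair had an adjusted p under 0.05.

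**Figure D4:**
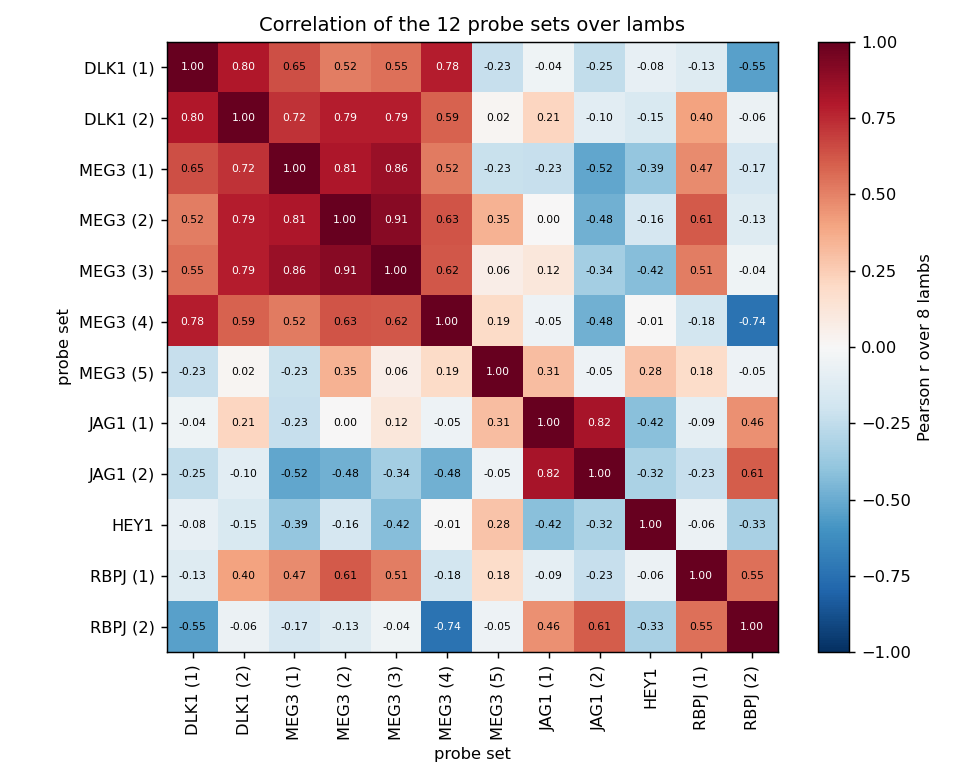
Pearson's r over 8 lambs between the 12 probe sets, from -1 (blue) to 1 (red), ordered by gene and brightness. The DLK1 probe sets and the 4 brighter MEG3 probe sets form a block of positive r, from 0.52 to 0.79 between the genes, which the dimmest MEG3 probe set and HEY1 do not join.

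The wider Notch pathway was described from 9 lists of 76 genes by their role, of which 44 had a named probe set. NmatCpat lambs were higher for 21 and lower for 23 of them, with a median difference of -0.03, against 0.005 over all probe sets. None of the 44 passed P and fold, against 2.91% of 9155 genes by their brightest probe sets and 3.93% of all probe sets. There were 2 with P of at most 0.05, against 4.66% of all probe sets, and the same 2 had genotypes that did not overlap, against 2.74%. For 36 of the 44 the 95% interval lay within a 2-fold change in either direction, and the median interval reached 0.47 to each side of its difference. None of the 43 genes other than DLK1 was correlated with DLK1 at an exact p of at most 0.05, against 4.38% of all other probe sets. At that share few or none of 43 would be reached.

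Among receptors, NOTCH4, which is chiefly an endothelial receptor, was the only one of 4 with a named probe set. It read 7.24, 6.94, 6.88 and 7.16 in the NmatCpat and 7.20, 7.32, 7.48 and 7.62 in NmatNpat animals 1 to 4. The difference was -0.35 (95% interval -0.75 to 0.05; exact permutation p = 0.0571; limma's adjusted p = 0.983), and its other probe set gave 0.006. Of 5 canonical ligands, JAG1 and DLL4 were measured. DLL4, the ligand of sprouting vessels, had a difference of -0.42 (95% interval -0.91 to 0.06; exact permutation p = 0.0571; limma's adjusted p = 0.983). Its lowest lambs were NmatCpat animals 1 and 3, at 7.77 and 7.59, and the other 6 lay between 8.27 and 8.54.

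Of 8 DLK and other atypical ligands, 6 were measured. DLK2, the close relative of DLK1, had a difference of -0.30 (95% interval -0.75 to 0.15). MFAP2 and MFAP5, microfibril proteins that can bind Notch ligands and receptors, had differences of 0.21 and -0.11. Of the glycosylation enzymes, POFUT1, which puts O-fucose on the EGF repeats of Notch, read 7.06, 7.18, 7.32 and 7.32 in the NmatCpat and 6.70, 6.67, 7.25 and 6.36 in NmatNpat animals 1 to 4. Only NmatNpat animal 3 overlapped with the NmatCpat lambs. The difference was 0.48 (95% interval -0.02 to 0.97; exact permutation p = 0.0857; limma's adjusted p = 0.983). Without that lamb it was 0.64 and past P and fold (limma's adjusted p = 0.963). The r of POFUT1 with DLK1 was 0.65.

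The proteases that cut Notch were even. ADAM10 had a difference of -0.04, and the gamma-secretase subunits PSEN2, NCSTN, APH1A and PSENEN had differences of 0.02, -0.17, -0.21 and 0.12. All 6 measured proteases had 95% intervals within a 2-fold change. Of the transcription complex, MAML2, a coactivator of the mastermind family, had a difference of 1.01 with a 95% interval of -0.85 to 2.87 at a low mean level of 3.71. The other coactivators in the list, SNW1, CREBBP and KAT2B, had differences of 0.02 to 0.05.

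Both genes with P of at most 0.05 were corepressors. NCOR1, a nuclear receptor corepressor that also serves RBPJ, read 9.82, 9.81, 9.59 and 9.68 in the NmatCpat and 9.30, 9.58, 9.25 and 8.92 in NmatNpat animals 1 to 4. The genotypes were parted by a narrow gap, between 9.58 and 9.59. The difference was 0.46 (95% interval 0.03 to 0.89; P = 0.0375, adjusted p = 0.983 by limma; exact permutation p = 0.0286, the smallest possible). The other 4 NCOR1 probe sets gave differences of -0.08 to 0.30, each with an interval that includes 0. CIR1, a corepressor that binds RBPJ, read 9.36, 9.19, 9.23 and 9.24 in the NmatCpat and 9.48, 9.62, 9.78 and 9.55 in NmatNpat animals 1 to 4. The difference was -0.35 (95% interval -0.69 to -0.01; P = 0.0455, adjusted p = 0.983 by limma; exact permutation p = 0.0286). Its other, dimmer probe set gave -1.06 with an interval of -3.26 to 1.14. When each lamb was left out in turn, P was at most 0.05 in 2 of 8 fits for NCOR1 and in 1 of 8 for CIR1. The share of pathway genes with P of at most 0.05, 2 of 44, is near the 4.66% of all probe sets. TLE3, a Groucho-type corepressor, had a difference of -0.33 (95% interval -0.77 to 0.12).

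Of 10 target genes, HEY1 and HES6 were measured, and HES6 had a difference of 0.28 (95% interval -0.35 to 0.91) at a low mean level of 3.34. Of the 14 inhibitors and trafficking factors, 10 were measured, with 5 differences above and 5 below 0. NUMB, which opposes Notch by promoting its endocytosis, had a difference of -0.16, and FBXW7, which marks the Notch intracellular domain for degradation, 0.27. EPN1, an endocytic adaptor that ligands require, had a difference of 0.53 (95% interval -0.29 to 1.35), and without NmatNpat animal 2 it was 0.79 and past P and fold (limma's adjusted p = 0.977).

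**Figure D5:**
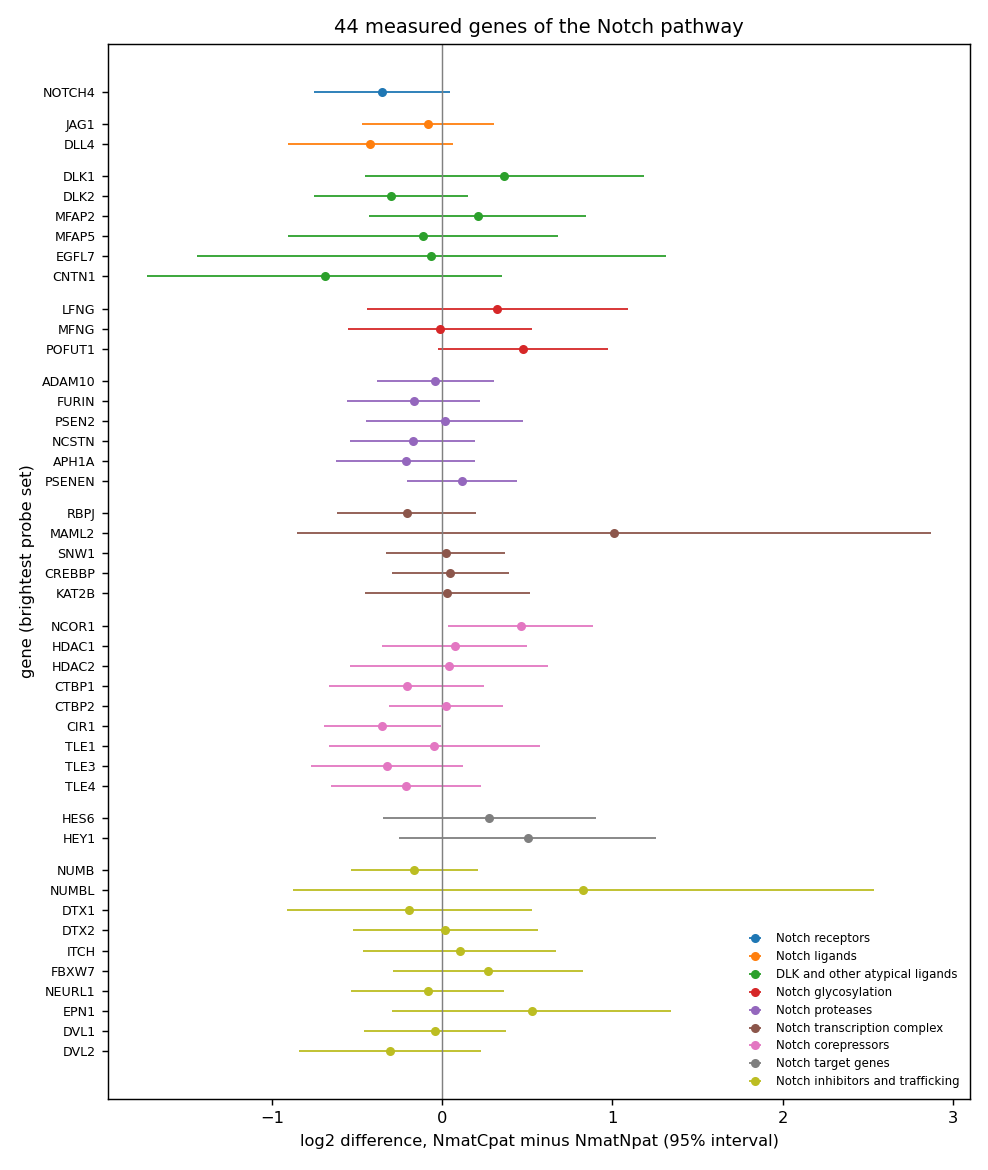
Log2 difference (NmatCpat minus NmatNpat, x axis) with its 95% interval for the brightest probe set of 44 measured genes of the Notch pathway, coloured by list. The interval excludes 0 only for NCOR1 and CIR1, whose adjusted p is 0.983, and the widest interval is that of MAML2, from -0.85 to 2.87.

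The probe sets most like and most unlike DLK1 over the lambs were taken as the 5 highest and 5 lowest r with its brighter probe set among 7935 named probe sets above the median level. Since they were chosen for r, these values are a description with no test, and they say nothing of shared function or control. The highest were SHISA5 (0.96), SLC37A2 (0.94), CZIB (0.93), NRF1 (0.92) and SLC15A4 (0.90), and the lowest were IL6R (-0.97), MFSD1 (-0.93), NIPSNAP2 (-0.93), HGS (-0.93) and SLC12A2 (-0.92). In SHISA5, an endoplasmic reticulum protein, the 8 lambs ran from 8.32 in NmatNpat animal 4 to 9.40 in NmatNpat animal 1. In IL6R, the interleukin 6 receptor, they ran from 7.77 in NmatCpat animal 1 to 8.41 in NmatNpat animal 4. NmatNpat animal 4 was the lowest lamb in each of the first 5 genes and the highest in each of the other 5. Without it and NmatCpat animal 3 the r of the first 5 was 0.50 to 0.80. That of the other 5 was -0.88 (HGS) to -0.58 (NIPSNAP2), with IL6R at -0.86. The other probe set of IL6R, NIPSNAP2, HGS and SLC12A2 had an r with DLK1 of -0.60, -0.33, 0.39 and -0.67, of the opposite sign for HGS. None of these 10 genes is in the Notch lists.

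Markers of the cell types that fat can hold were set beside the members as the mean deviation of each list from its mean over the 8 arrays. For 10 lists and 5 genes, 3 of 50 relations had an exact p of at most 0.05 and none had an adjusted p under 0.05, the lowest being 0.514. For DLK1 and the 12 measured preadipocyte and stromal markers r was 0.26 (exact permutation p = 0.525) and rho 0.14 (exact p = 0.752). Their summed signal was 26970 to 44030 in the NmatCpat and 28340 to 41620 in the NmatNpat lambs, and 1 of the 12 was below the median level on every array. COL1A1 and LUM varied most, and both were highest in animal 3 of each genotype. For DLK1 and the 14 measured fat cell markers r was -0.22 (exact permutation p = 0.628) and rho -0.10 (exact p = 0.840), with summed signals of 38670 to 44110 in the NmatCpat and 39830 to 42630 in the NmatNpat lambs.

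HEY1 ran with the 9 measured endothelial markers at r = 0.76 (exact permutation p = 0.0248; adjusted p = 0.514 over the 50 relations) and rho = 0.52 (exact p = 0.197). Their summed signal was 5839 to 7213 in the NmatCpat and 5540 to 6619 in the NmatNpat lambs, with none of the 9 below the median level on every array. Of the 9, KDR varied most and read 1.02 in NmatNpat animal 1 against 4.745 to 6.10 in the others. That low reading pulled the list down in this lamb, and the relation without KDR was not tested. NmatNpat animal 1 was lowest in both HEY1 and the list, and without it and NmatCpat animal 1 r was 0.49. With the 8 measured lymphocyte markers r was -0.75 (exact p = 0.0286; adjusted p = 0.514) and rho -0.62 (exact p = 0.115), and -0.54 without those lambs. The lymphocyte summed signal was 342 to 396.4 in the NmatCpat and 358.4 to 622.2 in the NmatNpat lambs, with 3 of the 8 below the median level on every array. MEG3 ran against the 8 measured mural (smooth muscle and pericyte) markers at r = -0.74 (exact p = 0.0364; adjusted p = 0.514) and rho = -0.71 (exact p = 0.0576), and it was -0.34 without NmatCpat animal 1 and NmatNpat animal 4, which were high in MYH11, at 11.53 and 11.93 against 8.30 to 10.51 in the others. The mural summed signal was 6327 to 14040 in the NmatCpat and 5031 to 14860 in the NmatNpat lambs, with none of the 8 below the median level on every array. The part of these cell types in the levels of HEY1 and MEG3 was not tested.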

How the data were processed

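RNA of perirenal fat from 8 lambs was measured on 8 Affymetrix Bovine Genome arrays. Per the labels and the study's methods, the authors processed the images with MAS5, and the methods add background correction and quantile normalization. The deposited intensity values are linear, and quantiles differ between columns. They were therefore put on the log2 scale with no offset and quantile-normalized here over all 24128 probe sets, and 112 control probe sets were then left out. Only 8 arrays limit the precision.

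A linear model with moderated variances (limma 3.58.1, R 4.3.3; no covariates, all 8 lambs) was fitted to the other 24016, with Benjamini-Hochberg adjustment over all of them. Calls used the study's thresholds. Permutation tests were exact over 70 arrangements of the lambs, or over 40320 pairings (576 within genotype) for correlations. P-values measure the spread between single lambs of 1 flock.

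Members and gene lists were chosen with earlier results of these data known. The design foresaw DLK1 against 8 genes, of which 4 had a named probe set. The genes named were the members, the wider pathway's genes past both thresholds and its 6 smallest P, the 5 highest and 5 lowest r with DLK1, and at most 2 genes of a marker list. Other pathway genes, MEG8, EPN1, the fat markers FABP4 and ADIPOQ and the muscle markers ACTA1 and CKM were chosen after their values were seen. Symbols came from the platform annotation, which is old. No genome sequence was used.

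Alternatives were other normalizations and variance models, an offset of 16 before the log and the mean of a gene's probe sets. Further alternatives were centring within genotype, the animal number as a block, and leaving out single lambs or both NmatNpat animal 1 and NmatCpat animal 4. Chosen after seeing the data was their use on the other pairs of DLK1 and MEG3 probe sets and on the genes most like DLK1.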

Additional observations from a re-analysis of the deposited data

Results flagged for a closer look

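In 3 of 56 genotype groups of 4 lambs, over 28 probe sets, a single lamb lay far from the others by Dixon's criterion. Chance gives about 1 in 20 for probe sets picked without regard to their values. Part of these, SLC37A2 and NIPSNAP2 among them, were chosen for their r with DLK1 in the same arrays, so that rate is no test of them. MEG3 read 8.995 on its second brightest probe set in NmatCpat animal 3, against 8.29 to 8.35 in the other NmatCpat lambs. SLC37A2, a gene that ran with DLK1, read 5.80 in NmatNpat animal 4, against 6.61 to 6.70 in the other NmatNpat lambs. NIPSNAP2, a gene that ran against DLK1, read 10.52 in NmatCpat animal 3, against 10.80 to 10.82 in the other NmatCpat lambs.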

How the results depend on the processing

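The DLK1 difference, by the brighter probe set or the mean of the gene's probe sets, kept its sign and stayed short of the thresholds under all alternatives. It ran from 0.06 to 0.60, the latter without NmatNpat animal 1 and NmatCpat animal 4. The dimmer DLK1 probe set alone did not keep its sign. With the animal number as a block the difference of the brighter probe set was 0.36 (limma's adjusted p = 0.940). The DLK1 and MEG3 correlation was then 0.72 (exact permutation within blocks, p = 0.75). For the dimmer DLK1 probe set r became -0.43 with the fourth and -0.74 with the fifth MEG3 probe set (exact p = 0.625 and 0.125). The smallest possible p within blocks is 0.125, so none of these r could pass a test. Same-numbered lambs did not deviate together (r of -0.01 to 0.05), so the numbers were not taken to pair them, and the block changed no count of calls.

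The MEG3 difference became 0.014 with median-centred arrays and 0.050 as the mean of all its probe sets, and it ran from -0.18 to 0.091 as each lamb was left out. In the same fits the differences ran from -0.34 to 0.30 for the dimmer DLK1 probe set, from -0.27 to 0.045, -0.23 to 0.046 and -0.24 to 0.059 for the second, the third and the fifth MEG3 probe sets, and from -0.15 to 0.0046 for JAG1. The member and pathway genes past P and fold, 0 in all, went from 0 to 1 in each case, through HEY1 without NmatCpat animal 4, POFUT1 without NmatNpat animal 3 and EPN1 without NmatNpat animal 2. Members correlated with DLK1 likewise went from 0 to 1, through MEG3 without NmatCpat animal 1.

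As each lamb was left out, r with DLK1 ran from 0.075 to 0.90 for MEG3, -0.29 to 0.64 for JAG1, -0.35 to 0.13 for HEY1 and -0.27 to 0.013 for RBPJ. For the fifth MEG3 probe set it ran from -0.57 to 0.68 with the brighter and -0.29 to 0.52 with the dimmer DLK1 probe set. Centred within genotype it was 0.068 for JAG1 and 0.089 for RBPJ, and with the dimmer DLK1 probe set 0.21 and 0.40. Without NmatNpat animal 1 and NmatCpat animal 4 it was 0.18 for HEY1 and -0.012 for the dimmer DLK1 and the fifth MEG3 probe sets, where the difference of the dimmer DLK1 probe set was 0.039 and that of the fifth MEG3 probe set 0.0074. Median-centred arrays gave -0.0021 for that pair. Of 647 values under alternatives, 600 kept their sign and, where a threshold applied, their side of it. The cause of the other changes was not tested. The 600 include the genes most like and most unlike DLK1, which were chosen for a large r and had no test. Their sign held under every alternative, so the total says less about the other results.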
